A study of Mus musculus with 6 samples.

Results

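The genes described here are 33 transcripts of the p53 pathway and of the DNA damage response: p53 itself (Trp53), its inhibitors, and genes that p53 is known to switch on. They were picked by gene name from a table of 55232 annotated features. The selection rule uses no measured value, but the list was drawn up with earlier results of these data known, so its counts are a description of these genes. Of the 33 members, 32 had at least 1 count in the 6 libraries, and 31 had enough counts to be tested. RNA was sequenced from mouse pulmonary microvascular endothelial cells, which the labels call a cell line. The cells grew for 12 h in the lower chamber of a shared culture with kidney cells. The 3 control samples had untreated TCMK-1 partners, an established tubular epithelial line from mouse kidney. In the other 3 samples, called the repletion group here and abbreviated IR in the treatment label and OD in the sample titles, the TCMK-1 partners had first been depleted of ATP and then allowed to regain it. The endothelial cells themselves were untreated in both groups, no genetic change is named for either cell line, and the tubular cells stand in the design as a culture model of kidney ischemia and reperfusion. Whether the 3 samples of each group were separate cultures is not stated in the labels. The p-values therefore reflect the spread between these 6 samples alone, and that spread may be technical.

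The protein p53 is a transcription factor held low in unstressed cells by Mdm2, which marks it for destruction, and by Mdm4, which blocks its activity. DNA breaks, stalled replication and other stresses release it. It then binds a response element made of a pair of 10-base units and raises genes that arrest the cell cycle, repair DNA, alter metabolism or start apoptosis. Many of these genes, among them Btg2, Plk2, Plk3 and the Gadd45 genes, also respond to growth factor, stress or inflammatory signals without p53, so their mRNA levels are not a direct reading of p53 activity. In endothelial cells the pathway is best known for growth arrest and senescence.

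Most of the pathway's target genes were lower in endothelial cells that had been kept with ATP-repleted tubular cells, while p53 mRNA did not pass the test. The growth arrest genes Btg2, Gadd45a and Gadd45b and the stress-induced gene Trp53inp1 fell furthest, to between 18.5% and 33.9% of their control means. Cdkn1a, which encodes the cyclin-dependent kinase inhibitor p21, fell to 52.7%, and Mdm2, at once an inhibitor and a target of p53, to 63.3%. By edgeR's quasi-likelihood test on the deposited counts, with Benjamini-Hochberg adjustment over 13804 features and a threshold of 0.05, 19 of the 31 tested members fell (61.3%), against 19.2% of all tested features. The number of members that rose was 0 by edgeR, against 20.5% of all features. It was also 0 at an unadjusted edgeR p under 0.05, 0 by DESeq2 and 0 by limma-voom, and 1 (Phlda3) when repletion replicate 1 was left out. Of the members, 9 fell at least 2-fold, against 2.77% of all features. In 21 members every repletion sample lay below every control sample, against 25.4% of all features, and in the other 10 the groups overlapped. The median log2 fold change was -0.61 over the 31 members and 0.00 over all tested features. As RNA came from bulk cultures, fewer cells with high levels and less RNA per cell cannot be told apart.

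**Figure D1:**
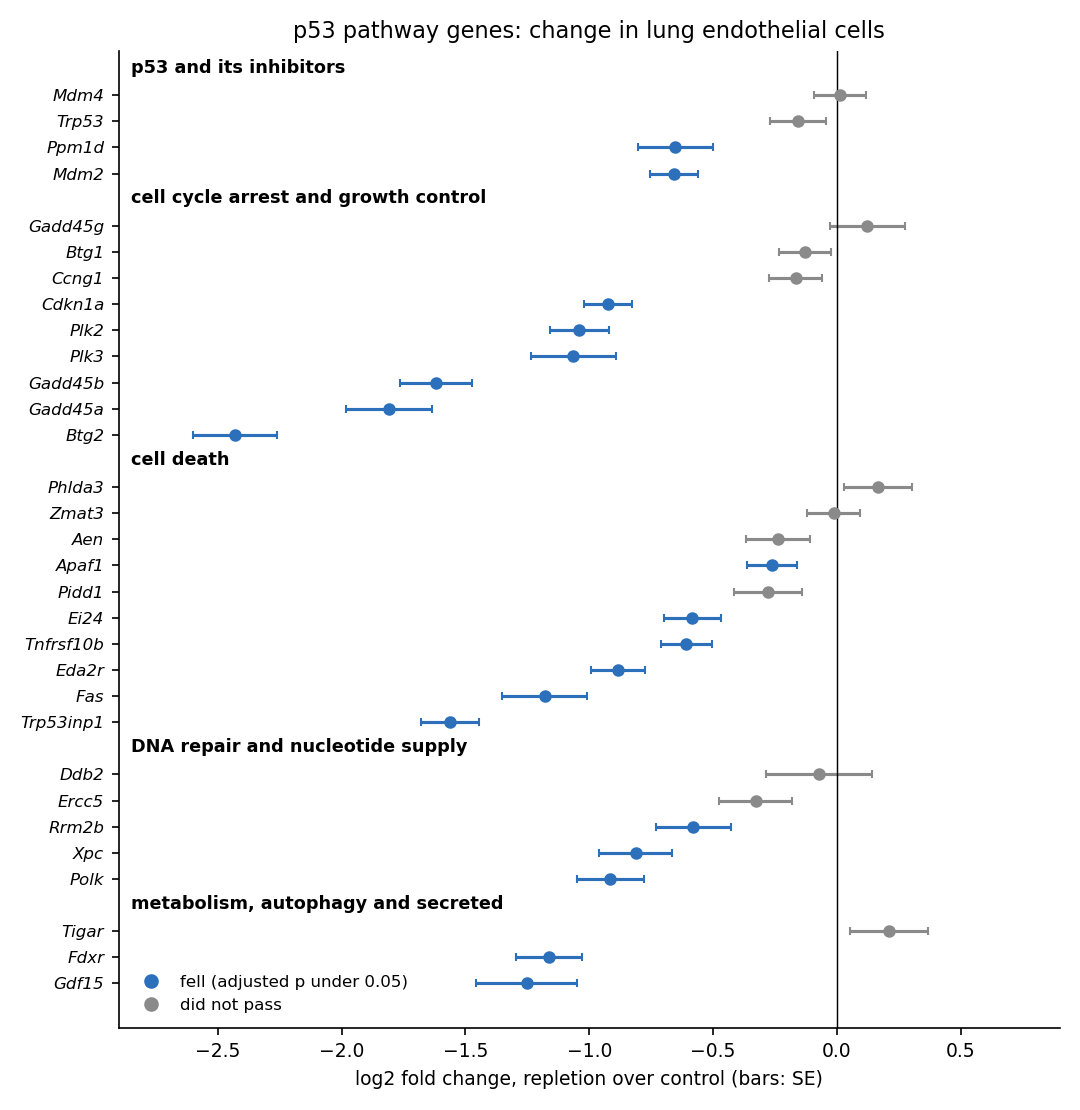
Log2 fold change of each of the 31 tested members, repletion over control, as points with bars of 1 standard error, grouped by role; colour marks members that passed the test, all of them lower. The 19 that fell reach from Btg2 at -2.43 to Apaf1 at -0.26, and the 12 that did not pass lie between -0.33 and 0.21.

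The libraries held 15582349 to 17817618 counts. Levels are counts scaled to a common library size with TMM factors (CPM), with the SD over 3 samples, and the standard error (SE) is that of the log2 fold change. Of 12 endothelial marker genes, all had counts in some library and their summed level was 2391 to 2667 CPM in control and 2535 to 2983 CPM in repletion samples, although Cldn5, the main claudin of endothelial tight junctions, had 3 counts in 1 library and 0 in the other 5. The 15 tubular markers summed to 11.7 to 14.3 and 23.6 to 25.5 CPM, and Epcam, Krt18, Slc34a1 and Umod were at 0 counts throughout. Most of the difference in that sum lay in Cubn, at means of 3.44 CPM in control and 14.1 CPM in repletion samples. Aqp1, the larger of these 2 genes in the controls, had 113, 101 and 171 counts there and 100, 159 and 129 in the repletion samples. The 9 leukocyte markers summed to 378 to 417 and 223 to 311 CPM, nearly all from Cd68, with Cd3e, Itgam and Tyrobp at 0 throughout. The 9 fibroblast markers, with Lum at 0, summed to 20.4 to 23.0 and 18.0 to 25.3 CPM, and the 7 lung epithelial markers, with Nkx2-1, Scgb1a1, Sftpa1 and Sftpc at 0, stayed under 1.80 CPM. Mitochondrially encoded protein-coding genes took 1.63% ± 0.0405 of the counts in control and 2.5% ± 0.283 in repletion samples (SD, n = 3; exact permutation test, two-sided, p = 0.1, the smallest that 3 against 3 samples allow). The tubular sum, mainly through Cubn, the leukocyte sum and the mitochondrial share separated the groups, and their part in the results was not tested.

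Promoter sequence was read for the members that RefSeq's table for GRCm38.p6 lists, which were 26 of the 33, with 31 promoters of 300 bases from 250 before to 50 after a start. These windows were searched for the p53 response element, whose pattern reads the same on both strands, so that a search of 1 strand covers both. An exact 10-base unit was found in 10 of the 31 promoters (32.3%), belonging to 9 members, against 8.36% of 32851 promoters in the table. Full elements, a pair of units with a spacer of at most 13 bases and at most 3 mismatches outside the core of each unit, were found in 6 of the 31 promoters (19.4%), belonging to 5 members, against 6.72% of all promoters. The sequences below are shown because they are the full elements in the members' promoters. Surroundings are included for all but Aen, where the element alone is given. Capitals mark the units, and each is written 5′ to 3′ on the strand of its gene.
Cdkn1a: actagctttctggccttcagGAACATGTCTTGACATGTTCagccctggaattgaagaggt
Trp53: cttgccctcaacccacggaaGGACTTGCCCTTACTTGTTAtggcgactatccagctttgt
Tigar: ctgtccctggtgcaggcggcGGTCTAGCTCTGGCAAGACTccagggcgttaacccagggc
Mdm4: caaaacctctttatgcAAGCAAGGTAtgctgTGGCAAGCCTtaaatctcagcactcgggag
Aen: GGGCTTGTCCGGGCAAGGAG
The Cdkn1a window is chr17:29090908-29090967 on the plus strand, upstream of the annotated gene start, and its element begins 51 bases before the upstream of 2 RefSeq starts. It had 1 mismatch, the fewest among the 5 members, and its units abut; the other 4 elements each had 3 mismatches. The Trp53 window is chr11:69580264-69580323 on the plus strand. Both the Trp53 window and that of Tigar, at chr6:127109726-127109785 on the minus strand, lie upstream of the annotated genes. The Mdm4 window, chr1:133025606-133025666 on the minus strand, lies within the annotated gene, before the downstream of its 2 RefSeq starts, and its units are 5 bases apart. The Aen element, chr7:78895937-78895956 on the plus strand, lies within the annotated gene, after the upstream and 121 bases before the downstream of its RefSeq starts.

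Of the 25 tested members with a searched promoter, 15 fell and 10 did not pass the test. The share that fell was 61.3% of all 31 tested members and 19.2% of all tested features. Of the 5 members with a full element, Cdkn1a fell, and Trp53, Mdm4, Tigar and Aen did not pass the test. An exact single unit was present in 6 members that fell (Cdkn1a, Ei24, Gadd45a, Mdm2, Polk and Ppm1d) and in 3 that did not pass (Aen, Ccng1 and Trp53). The windows of 30 bases around the unit in 3 of those that fell are given because these genes recur in the results, and Ccng1, among the best known p53 targets, is given for contrast.
Mdm2: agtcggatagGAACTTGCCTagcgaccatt
Gadd45a: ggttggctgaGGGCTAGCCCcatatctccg
Ppm1d: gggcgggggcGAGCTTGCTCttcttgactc
Ccng1: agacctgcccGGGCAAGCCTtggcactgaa
They lie at chr10:117710925-117710954 (minus strand), chr6:67037428-67037457 (minus), chr11:85311112-85311141 (plus) and chr11:40755452-40755481 (minus), in the order shown. The Gadd45a window covers the 5′ end of the annotated gene and the other three lie upstream of theirs. A match is a description of the letters in these windows, and whether a match goes with a fall was not tested. Elements elsewhere were not searched, and well-studied p53 elements of Mdm2 and Gadd45a lie inside introns. Of the members that fell furthest, Btg2 and Gadd45b had no exact unit in the window, and Trp53inp1 is not among the listed promoters.

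Among p53 and its inhibitors, the inhibitors Mdm2 and Ppm1d fell, and Trp53 and Mdm4 did not pass the test. Trp53 was at 169, 160 and 200 CPM in control replicates 1 to 3 and at 171, 142 and 163 CPM in repletion replicates 1 to 3. The groups overlapped, with the highest value in a control and the lowest in a repletion sample. The log2 fold change of Trp53 was -0.16 ± 0.11 (SE; edgeR adjusted p = 0.293). Mdm2, the ubiquitin ligase that limits p53, was at 535, 515 and 508 CPM in the controls and at 348, 330 and 308 CPM in the repletion samples. Every repletion sample lay well below every control, and the spread within each group was small. Its mean fell from 519 ± 14.0 to 329 ± 19.7 CPM (SD, n = 3), and the log2 fold change was -0.66 ± 0.10 (SE; edgeR adjusted p = 5.84e-05). Ppm1d, a phosphatase that switches off p53 and its upstream kinases, fell from 26.2 ± 1.70 to 16.7 ± 2.26 CPM (SD, n = 3; log2 fold change -0.65 ± 0.15 (SE), edgeR adjusted p = 0.00251). Mdm4, the relative of Mdm2 that binds p53 without marking it for destruction, was at 141 ± 13.2 and 142 ± 7.86 CPM (SD, n = 3), with overlapping groups (log2 fold change 0.01 ± 0.11 (SE), edgeR adjusted p = 0.937). After the trends with gene length and GC content had been removed from each library, the value for this gene, whose length of 14798 bases is the longest among the members, was -0.26 (edgeR adjusted p = 0.0237). Mdm2 thus fell, while Mdm4 was near 0 before that adjustment and passed as lower after it. The difference between these 2 genes was not tested.

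Of the 9 genes of cell cycle arrest and growth control, 6 fell (66.7%), 5 of them at least 2-fold, and the median of the 9 was -1.04. The share that fell was 61.3% of all tested members and 19.2% of all tested features, and 2.77% of all features fell at least 2-fold. Cdkn1a (chr17:29090976-29100727), which halts the cycle by inhibiting cyclin-dependent kinases, was at 431, 406 and 377 CPM in the controls and at 215, 210 and 215 CPM in the repletion samples. The repletion samples were nearly alike, and all lay far below the lowest control. Its mean fell from 405 ± 26.7 to 213 ± 2.93 CPM (SD, n = 3), and the log2 fold change was -0.93 ± 0.10 (SE; edgeR adjusted p = 2.44e-06). This is the gene with the closest match to the p53 element in its promoter window, shown above.

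Btg2 (chr1:134075170-134079120), an antiproliferative protein that also promotes the removal of poly(A) tails, was at 66.5, 62.4 and 58.6 CPM in the controls and at 11.5, 14.8 and 8.5 CPM in the repletion samples. It had the lowest fold change of the 31 tested members, and its groups were far apart. The log2 fold change was -2.43 ± 0.17 (SE; edgeR adjusted p = 2.85e-08), which left 18.5% of the control mean. Its paralog Btg1 was at 135 ± 10.8 and 123 ± 7.41 CPM (SD, n = 3), overlapped between the groups and did not pass (log2 fold change -0.13 ± 0.10 (SE), edgeR adjusted p = 0.347).

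The 3 Gadd45 genes encode small acidic proteins that bind p21, PCNA and the kinase MTK1 and couple stress to growth arrest. Gadd45a (chr6:67035096-67037457) was at 46.8, 40.3 and 51.3 CPM in the controls and at 15.6, 14.5 and 9.46 CPM in the repletion samples. Gadd45b (chr10:80930073-80932204) was at 92.8, 86.8 and 114 CPM and at 26.3, 38.5 and 30.8 CPM in the same order. For both genes the highest repletion sample stayed below the lowest control. Gadd45a fell by 1.81 on the log2 scale (SE 0.17, edgeR adjusted p = 9.61e-07) and Gadd45b fell by 1.62 (SE 0.15, edgeR adjusted p = 4.55e-07). Gadd45g was at 44.3, 35.7 and 44.7 CPM in the controls and at 35.7, 45.4 and 54.7 CPM in the repletion samples. Its groups overlapped and its log2 fold change of 0.12 ± 0.15 (SE) did not pass (edgeR adjusted p = 0.551), and whether the 3 genes differ in their change was not tested. An opposite-strand gene, E230016M11Rik, covers 19.1% of the Gadd45a exon length. Its counts were higher in repletion samples, with means of 12.3 and 34.7, while those of Gadd45a were lower.

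Plk2 and Plk3 are polo-like kinases induced by stress that act in checkpoints, unlike the mitotic Plk1. Plk2 (chr13:110395046-110400844) was at 335, 356 and 369 CPM in the controls and at 206, 150 and 160 CPM in the repletion samples, and fell by 1.04 on the log2 scale (SE 0.12, edgeR adjusted p = 4.91e-06). Plk3 (chr4:117128655-117133963) was at 207, 194 and 212 CPM in the controls and at 137, 87.1 and 69.7 CPM in the repletion samples, and fell by 1.06 (SE 0.17, edgeR adjusted p = 0.000132). Neither gene's groups overlapped, but the repletion values of Plk3 spread 1.96-fold from the lowest to the highest, against 1.09-fold in the controls. Ccng1, the cyclin G1 gene, did not follow: it was at 738, 631 and 589 CPM in the controls and at 534, 592 and 618 CPM in the repletion samples, with overlap (log2 fold change -0.17 ± 0.11 (SE), edgeR adjusted p = 0.231).

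**Figure D2:**
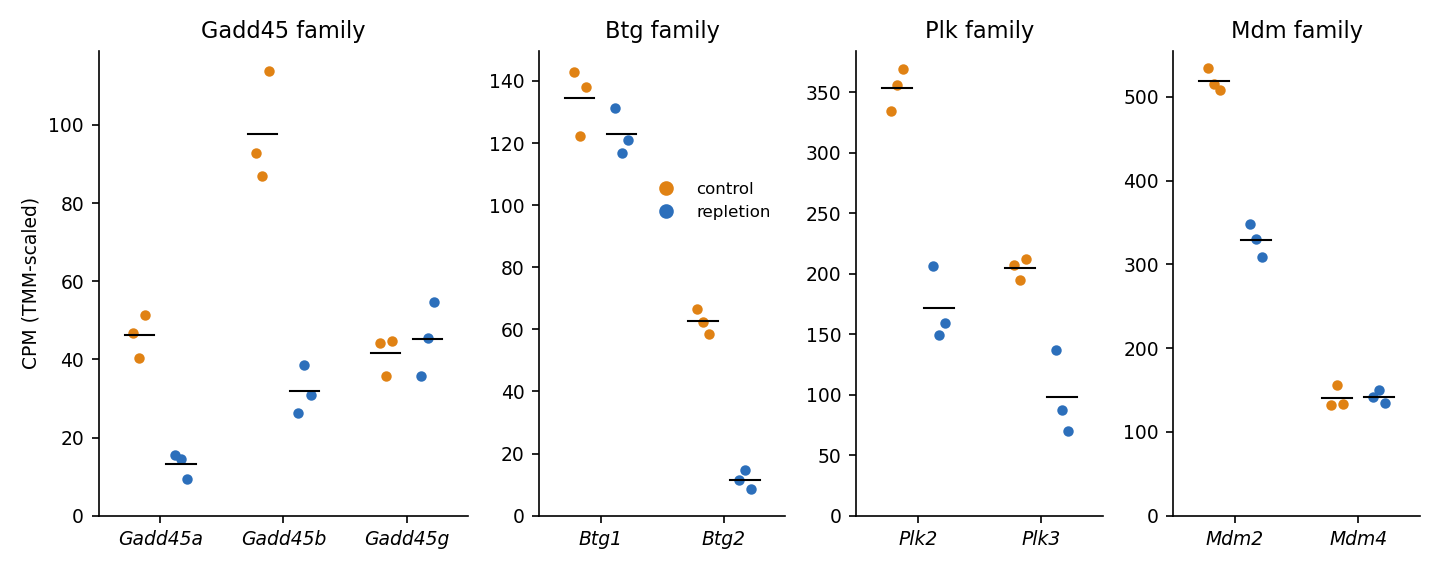
CPM of related members by sample, as points for the 3 control and the 3 repletion replicates, with the group mean as a line. Gadd45a, Gadd45b, Btg2, Plk2, Plk3 and Mdm2 fell without overlap between groups, while Gadd45g, Btg1 and Mdm4 overlapped. Over all tested features, 25.4% had every repletion sample below every control sample.

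Of the 11 cell death genes, 10 were tested and 6 fell (60%), against 61.3% of all tested members and 19.2% of all tested features. The death receptor genes fell together. Fas, the receptor for Fas ligand (chr19:34290659-34327770), was at 20.7, 17.3 and 18.8 CPM in the controls and at 8.46, 8.81 and 7.78 CPM in the repletion samples, a log2 fold change of -1.18 ± 0.17 (SE; edgeR adjusted p = 5.38e-05). Tnfrsf10b, the receptor for TRAIL, fell from 167 ± 7.02 to 110 ± 8.77 CPM (SD, n = 3; log2 fold change -0.61 ± 0.10 (SE), edgeR adjusted p = 0.000212). Eda2r, the X-linked ectodysplasin A2 receptor, fell from 257 ± 12.8 to 139 ± 16.9 CPM (SD, n = 3; log2 fold change -0.89 ± 0.11 (SE), edgeR adjusted p = 1.08e-05). In all 3 receptor genes every repletion sample lay below every control sample, against 25.4% of all tested features.

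Trp53inp1 (chr4:11156431-11174379), a nuclear protein that promotes p53 phosphorylation and also acts in autophagy, was at 125, 144 and 113 CPM in the controls and at 44.4, 43.6 and 41.3 CPM in the repletion samples. The repletion samples lay close together, far below the lowest control. It fell by 1.56 on the log2 scale (SE 0.12, edgeR adjusted p = 6.50e-08). Ei24, an endoplasmic reticulum protein with roles in autophagy, fell from 132 ± 2.45 to 88.1 ± 12.2 CPM (SD, n = 3; log2 fold change -0.58 ± 0.11 (SE), edgeR adjusted p = 0.00066).

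The adaptors of caspase activation changed little or did not pass. Apaf1, the core of the apoptosome, was at 147, 148 and 131 CPM in the controls and at 112, 121 and 122 CPM in the repletion samples. Its groups were apart by a narrow gap, and it passed the threshold barely (log2 fold change -0.26 ± 0.10 (SE), edgeR adjusted p = 0.0496). This call was lost in 11 of 15 alternative analyses, among them the omission of any 1 of the 6 libraries, with an adjusted p of 0.00103 to 0.128 over all 15. Pidd1, the scaffold of the caspase-2 complex, was at 33.3 ± 3.41 and 27.5 ± 2.84 CPM (SD, n = 3; edgeR adjusted p = 0.121), with overlap. Aen, a nuclease of apoptotic DNA breakdown, was at 47.5, 48.8 and 53.2 CPM and at 45.8, 35.4 and 45.7 CPM, groups that did not overlap but did not pass (log2 fold change -0.24 ± 0.13 (SE), edgeR adjusted p = 0.157).

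Phlda3, a repressor of the kinase Akt, was at 138, 119 and 128 CPM in the controls and at 110, 175 and 148 CPM in the repletion samples. The first repletion sample lay below all controls and the other two above them. Its log2 fold change of 0.17 ± 0.14 (SE) did not pass (edgeR adjusted p = 0.353), but without repletion replicate 1 it passed as higher, at 0.33 (edgeR adjusted p = 0.0275). Zmat3, an RNA-binding protein induced by p53, was at 154 ± 11.8 and 153 ± 14.7 CPM (SD, n = 3; log2 fold change -0.01 ± 0.11 (SE), edgeR adjusted p = 0.935). With the length and GC trend removed it passed as lower, at -0.29 (edgeR adjusted p = 0.0387). Perp, a desmosomal membrane protein and p53 target of epithelial cells, had 0 counts in all 6 libraries, which allows up to 3 counts or 0.168 to 0.193 CPM per library, for counting error only.

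**Figure D3:**
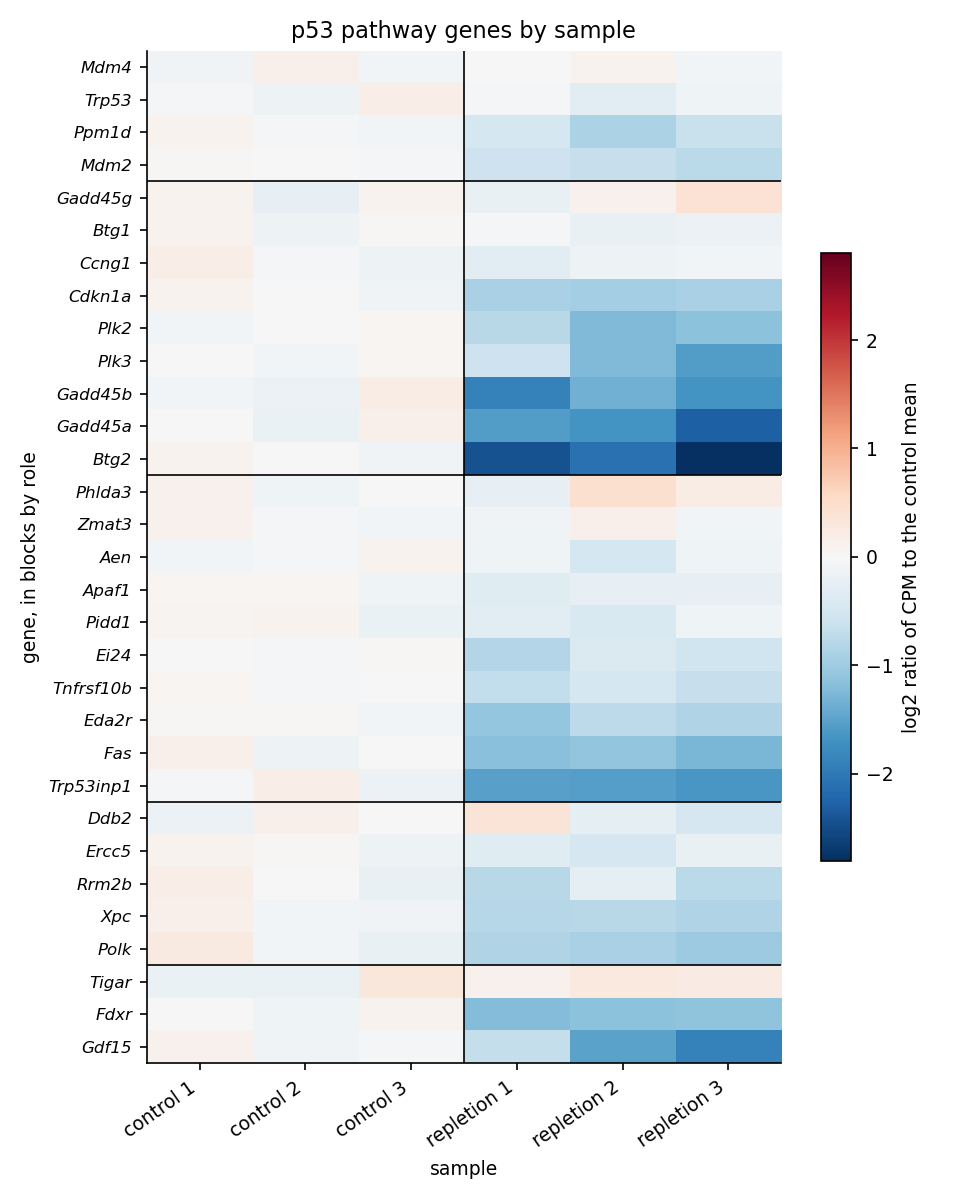
Level of each tested member in each of the 6 samples, as a log2 ratio to the control mean, with members in rows grouped by role and samples in columns. The 19 members that fell, picked by the test on these same samples, are below the control mean in each of the 3 repletion samples.

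Of the 5 genes for DNA repair and nucleotide supply, 3 fell (60%), none of them 2-fold, against 61.3% of all tested members and 19.2% of all tested features. Xpc, the damage sensor of global nucleotide excision repair, was at 29.2, 25.1 and 24.8 CPM in the controls and at 15.1, 15.4 and 14.6 CPM in the repletion samples (log2 fold change -0.81 ± 0.15 (SE), edgeR adjusted p = 0.000342). Polk, a translesion DNA polymerase, was at 72.1, 57.2 and 52.2 CPM and at 33.8, 32.3 and 30.1 CPM (log2 fold change -0.92 ± 0.14 (SE), edgeR adjusted p = 6.20e-05). In both genes the repletion samples were more alike than the controls and lay below them all. Rrm2b, the ribonucleotide reductase subunit that supplies nucleotides outside S phase, was at 60.8, 53.3 and 46.1 CPM and at 31.1, 44.4 and 31.7 CPM. Its groups came close, with 1 repletion sample just under the lowest control, and it fell by 0.58 on the log2 scale (SE 0.15, edgeR adjusted p = 0.00566).

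Ercc5, the nuclease that cuts 3′ of a lesion, was at 25.8, 24.6 and 21.7 CPM in the controls and at 19, 17.4 and 21 CPM in the repletion samples. The groups did not overlap, but the log2 fold change of -0.33 ± 0.15 (SE) did not pass (edgeR adjusted p = 0.0854), and it passed at -0.39 (edgeR adjusted p = 0.0392) with the length and GC trend removed. Ddb2, which recognises ultraviolet lesions ahead of Xpc, was at 11.2, 13.9 and 12.6 CPM and at 16.2, 10.5 and 9.10 CPM. The repletion samples enclosed the control range, and the log2 fold change was -0.07 ± 0.21 (SE; edgeR adjusted p = 0.815). The opposite-strand gene Acp2 covers 23.8% of the Ddb2 exon length and its mean count went from 669 to 442, and the strand setting of the counting is not given in the sources used here.

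Among the 4 members with roles in metabolism, autophagy or secretion, 3 were tested, with a median of -1.16, and Fdxr and Gdf15 fell at least 2-fold. Of all tested features, 2.77% fell at least 2-fold. Fdxr (chr11:115268024-115277050), the mitochondrial ferredoxin reductase of iron-sulfur cluster and steroid synthesis, was at 39.2, 35.6 and 41.3 CPM in the controls and at 16.7, 17.5 and 17.7 CPM in the repletion samples. The repletion samples were nearly alike and lay at less than 50% of the control mean (log2 fold change -1.16 ± 0.13 (SE), edgeR adjusted p = 5.74e-06). Gdf15 (chr8:70629393-70632456), a secreted stress cytokine that is also a target of ATF4, was at 342, 294 and 309 CPM in the controls and at 200, 111 and 85.1 CPM in the repletion samples. All repletion samples were below the controls, but they spread 2.34-fold, the widest among the tested members in that group. Its log2 fold change was -1.25 ± 0.20 (SE; edgeR adjusted p = 0.000154), and between -1.68 and -1.02 over the alternative analyses. Tigar, a phosphatase that restrains glycolysis, was at 19.5, 19.5 and 27.5 CPM and at 24.0, 26.9 and 26.0 CPM, with overlap (log2 fold change 0.21 ± 0.16 (SE), edgeR adjusted p = 0.309). Dram1, a lysosomal regulator of autophagy, had 4 counts in control replicate 1 and 0 in the other 5 libraries and was not tested.

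The fall was shared by the libraries rather than carried by 1 of them. The summed level of the 31 tested members was 4520 to 4819 CPM in the controls and 3024 to 3137 CPM in the repletion samples. The median log2 ratio of the 31 to their control means was -0.58, -0.49 and -0.65 in repletion replicates 1 to 3. For the 19 members that fell, the sums were 2995 to 3146 and 1508 to 1738 CPM, and all 19 lay below their control mean in each repletion library. These 19 were picked by the test on these same samples, so their separation is largely given by that choice and adds no support. Repletion replicate 3 was the lowest of its group in 9 of these 19 members, replicate 1 in 7 and replicate 2 in 3. The widest spreads within the repletion group were those of Gdf15, Plk3, Ddb2 (1.78-fold), Btg2 (1.74-fold), Gadd45a (1.65-fold) and Phlda3 (1.59-fold).

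Levels per kilobase of gene length allow the members to be ranked against each other. In the controls the most abundant were Ccng1 (182 CPM per kb), Gdf15 (166), Cdkn1a (111), Mdm2 (99.8), Phlda3 (80.4), Plk3 (79.0) and Plk2 (76.9). In the repletion group the order was Ccng1 (169 CPM per kb), Phlda3 (94.2), Gdf15 (73.0), Mdm2 (66.0) and Cdkn1a (61.2). Ccng1 was thus the most abundant in both groups. By group means, Phlda3 ranked below Gdf15, Cdkn1a and Mdm2 in the controls and above them in the repletion group. The repletion values spread 1.59-fold for Phlda3 and 2.34-fold for Gdf15. In repletion replicate 1, before division by length, Phlda3 was at 110 CPM and Gdf15 at 200 CPM. Neither Ccng1 nor Phlda3 passed the test. The repletion values of Gdf15, Mdm2 and Cdkn1a are close relative to the spread of Gdf15. The median gene length was 4491 bases for the 19 members that fell and 4287 bases for the 12 that did not pass, and their median control levels were 127 and 89.1 CPM.

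**Figure D4:**
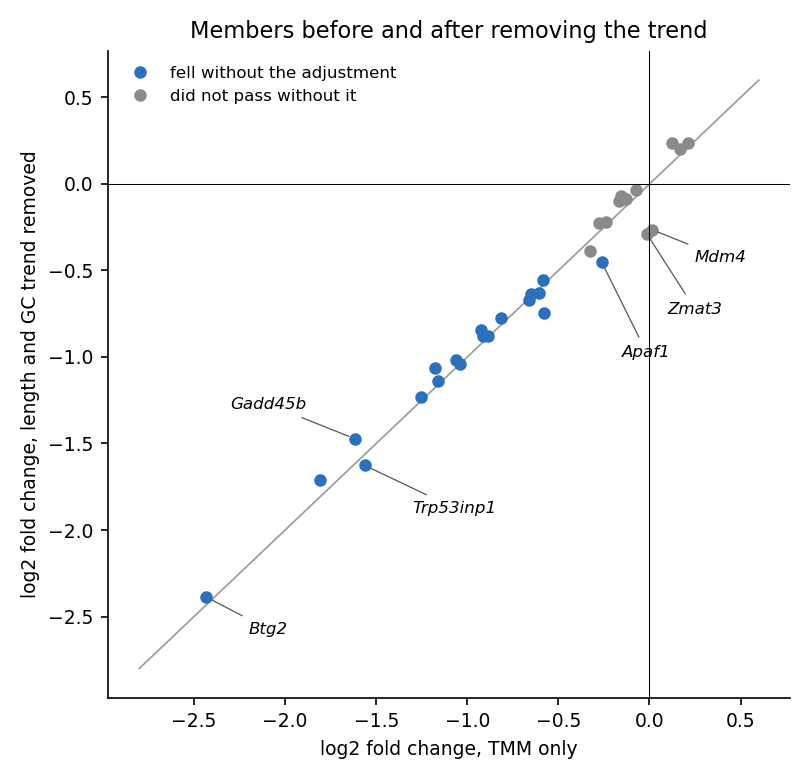
Log2 fold change of the 31 tested members with TMM scaling alone (horizontal axis) and after the trends with gene length and GC content had been removed (vertical axis), with the line of equality. Most members lie near the line, while Mdm4 and Zmat3 move from near 0 to -0.26 and -0.29, and the number that fell goes from 19 to 22. Over all tested features that number goes from 2654 to 2806.

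Other genes of the pathway were counted from 4 lists chosen by known role. Among 37 tested p53 targets beyond the members, 12 fell (32.4%) and 3 rose (8.11%), against 19.2% and 20.5% of all tested features, with a median log2 fold change of -0.19. The falls were led by Tob1, an antiproliferative relative of Btg2, from 99.5 ± 17.1 to 43.2 ± 3.87 CPM (SD, n = 3; log2 fold change -1.20, edgeR adjusted p = 3.38e-06). Sesn2, a sestrin that restrains mTORC1, fell from 58.3 ± 3.72 to 31.5 ± 3.76 CPM (SD, n = 3; log2 fold change -0.89, edgeR adjusted p = 4.71e-05), and Tap1, a peptide transporter of antigen presentation, had a log2 fold change of -0.71 (edgeR adjusted p = 0.000163). Those that rose included Pml and Kitl, at log2 fold changes of 0.37 and 0.34. Without control replicate 3 none of the list passed as higher by edgeR, and without control replicate 1 the number was 1. Of all features, 2241 and 2453 rose under the same settings, against 2830 in the reported test. Pml also lost its call without repletion replicate 3, and Kitl without control replicate 2 or repletion replicate 2, with edgeR adjusted p-values of up to 0.0662 and 0.105. The p53-induced BCL2 family genes Bax (log2 fold change 0.01 ± 0.12 (SE), edgeR adjusted p = 0.957) and Bbc3 (-0.48 ± 0.22, edgeR adjusted p = 0.0965) did not pass.

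Among genes that act above p53 or signal DNA damage, more rose than fell. Of 30 tested regulators and damage-signalling genes, 12 rose (40%) and 2 fell (6.67%), with a median of 0.23. Among all tested features 20.5% rose and 19.2% fell, with a median of 0.00. Mdc1, the scaffold that gathers repair factors at DNA breaks, rose from 69.1 ± 6.23 to 151 ± 9.48 CPM (SD, n = 3; log2 fold change 1.13, edgeR adjusted p = 9.61e-07). The acetyltransferase genes Crebbp and Ep300, whose proteins acetylate p53, rose by 0.80 and 0.62 on the log2 scale (edgeR adjusted p = 0.00027 and 0.000323), and by 0.56 and 0.35 with the length and GC trend removed. The deacetylase gene Sirt1 and the checkpoint kinase gene Chek1 fell by 0.53 and 0.40 (edgeR adjusted p = 0.00468 and 0.0199). Chek1 did not pass without control replicate 1 or without repletion replicate 3, with an adjusted p of up to 0.108. Without control replicate 3 the number of the list that rose was 7, and with the length and GC trend removed it was 9. Among all features, 2241 and 2700 rose under the same settings, against 2830 in the reported test.

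Of 32 tested genes of excision repair and translesion synthesis, 9 fell (28.1%) and 3 rose (9.38%), with a median of 0.04. Among all tested features 19.2% fell and 20.5% rose, so the share that fell was not far above that of all features. Rpa1, a subunit of the single-strand binding complex, the sliding clamp gene Pcna and the ligase gene Lig1 fell by 0.47, 0.43 and 0.42 on the log2 scale (edgeR adjusted p = 0.00145, 0.00286 and 0.00476). Rev3l, the catalytic subunit of polymerase zeta, rose by 0.63 (edgeR adjusted p = 0.00059), Lig3 by 0.47 and Rad18 by 0.30. Lig3 did not pass without control replicate 1 or repletion replicate 3 (edgeR adjusted p up to 0.0609), and Rad18 did not without any of the 3 controls or without repletion replicate 2 or 3 (edgeR adjusted p up to 0.14). Without repletion replicate 3 the list's counts were 5 lower and 1 higher, and with scaling to library size alone 6 were higher. Over all features these counts were 2019 lower and 2195 higher, and 3214 higher, against 2654 lower and 2830 higher in the reported test.

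The p21 and DREAM repressor pathway is known to hold down many cell cycle genes. Of 20 such genes tested, 11 rose (55%) and 2 fell (10%), with a median of 0.31. Among all tested features 20.5% rose and 19.2% fell, with a median of 0.00. Ccnb1, the mitotic cyclin B1, rose from 126 ± 8.45 to 228 ± 13.4 CPM (SD, n = 3; log2 fold change 0.86, edgeR adjusted p = 8.07e-06). Plk1, the mitotic polo-like kinase, rose from 69.7 ± 4.84 to 148 ± 34.7 CPM (SD, n = 3; log2 fold change 1.09, edgeR adjusted p = 2.26e-05), and the transcription factor gene Foxm1 rose by 0.61 (edgeR adjusted p = 0.000361). E2f1 and Mcm5, which act at entry into S phase, fell by 0.63 and 0.30 (edgeR adjusted p = 0.00031 and 0.0231). Mcm5 did not pass without control replicate 3 or without repletion replicate 3 (edgeR adjusted p up to 0.118), and E2f1 was then the 1 gene of this list that fell. In these same samples Cdkn1a, the gene for p21, was lower, and no link between these changes was tested.

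**Figure D5:**
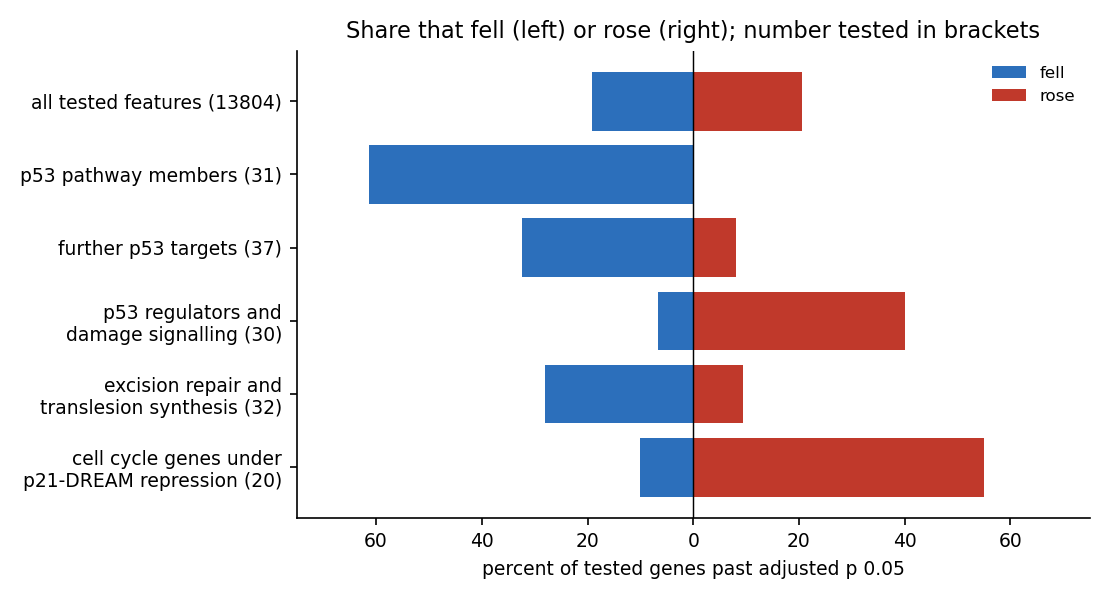
Share of tested genes that rose or fell in each list and among all 13804 tested features, as bars in percent starting at 0. The p53 members have 61.3% that fell and 0 that rose, against 19.2% and 20.5% of all features.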

How the data were processed

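RNA-seq of 3 control and 3 repletion samples was analysed from 1 deposited table of 55232 features. The authors deposited unnormalized read counts, whole numbers in every sample column, and all tests used them. The table also holds the authors' deposited FPKM, their signal (group means of scaled counts), log2 fold changes and p-values, which were not used here, and a gene length (other) in bases, used for levels per kilobase. The submitters' processing notes name HISAT2 2.0.5, featureCounts 1.5.0-p3, DESeq2 1.20.0 and GRCm38.p6. Neither the strand setting nor the release of the annotation is stated there.

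Counts were filtered with filterByExpr, which left 13804 features, scaled by TMM (factors 0.970 to 1.03) and tested, two-sided, with edgeR 4.0.16 (quasi-likelihood) in R 4.3.3, after the test had been tried on simulated data. The SE of a log2 fold change came from its F statistic. Levels per kilobase and marker sums use unscaled library totals. Alternatives were DESeq2 1.42.0, limma-voom (3.58.1), RLE factors, scaling by library totals alone, no low-count filter, a filter of 1 CPM in 3 samples, only protein-coding genes, a replicate block, removal of length and GC trends (GENCODE M21 transcripts, splines with 5 degrees of freedom), and leaving out each sample. Near-identical copies were sought with BLAST 2.17.0 at 95% identity over 30% of a transcript, and no member had one.

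The members and lists were chosen with earlier results of these data known. All members are accounted for. Of each further list, the text names up to 3 tested genes with the smallest p in each direction among those past the threshold. One gene under this rule is not reported here. Sesn2 came under it, and Bax and Bbc3 were chosen after their values were seen. Promoter windows and sequences are RefSeq's. Exact units followed the p53 consensus, and among overlapping full elements the one with the shortest spacer, then the fewest mismatches, was kept. Protein sequences of the members were not analysed here.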

Additional observations from a re-analysis of the deposited data

How the results depend on the processing

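Of the 31 tested members, 26 kept their side of the threshold under all 15 alternatives. The exceptions were Apaf1, Phlda3, Zmat3, Ercc5 and Mdm4, which went from 0.01 to -0.26 with the length and GC trend removed. The sign turned under some alternative in Mdm4, Zmat3, Gadd45g (-0.04 to 0.26) and Ddb2 (-0.36 to 0.09), all short of the threshold in the reported test, and in no member that fell. The number of members that fell was 18 with any 1 sample left out, 18 with the replicate block and 22 with the trend removed, and the median ranged from -0.68 to -0.57 over the omissions. The number that rose was 0 to 1 over the omissions, the 1 being Phlda3. Over all tested features, 2195 to 2765 rose and 1977 to 2745 fell with 1 sample left out. The reported test had 2830 and 2654, and with the trend removed 2700 rose and 2806 fell. With 1 sample left out, regulators that rose numbered 7 to 13 and those that fell 1 to 3. Further targets that rose numbered 0 to 2, excision repair genes that rose 1 to 4 and that fell 5 to 9, and cell cycle genes that fell 1 to 2. With library size only, 6 excision repair genes rose, and 3214 of all features. With library size only or the replicate block 1 cell cycle gene fell, against 2199 and 2353 of all features. The cause of these shifts was not tested. Replicate numbers were shared between groups, but nothing says that they mark a shared culture: same-numbered samples deviated from their group means with correlations of -0.0757, -0.0331 and 0.0552 over 13804 features, so the numbers were not taken as a pairing, and the block left 2485 features higher and 2353 lower against 2830 and 2654. Without a filter, the median of all 26376 features was 0.13.

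Groups of 3 limit the precision of every value. The largest SE among the tested members was 0.21, in Ddb2 (control mean 12.6 CPM), so small changes there were not detectable. A large SE was not confined to low members: Gdf15, at 315 CPM in the controls, had an SE of 0.20. Only mRNA was measured: p53 protein, its phosphorylation and its binding were not, and overlapping opposite-strand genes (7 members) cannot be told apart from the members without strand.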
